A study of Mus musculus with 2 samples.

Results

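The mouse serum amyloid A genes Saa1, Saa2 and Saa3 and the lipocalin gene Lcn2 were examined on 2 arrays, 1 of grafted small intestinal epithelium and 1 of normal colonic epithelium. These 4 genes were chosen by name out of 17305 genes on the array, and each was read from the brightest probe set, a group of probes for 1 transcript, that carried its symbol. The graft came from small intestinal cells of EGFP-transgenic mice of C57BL6 background, which were cultured as organoids for 7 days, instilled into the colonic lumen of C57BL6 recipients and collected 4 weeks later. The colon sample was normal colonic epithelium of a control C57BL6 mouse. Both epithelia were cut out by laser microdissection, RNA of about 30 sections was pooled per specimen, and 4.33 ng of RNA was amplified for each array, so each group is 1 specimen. Ungrafted small intestine was not analysed here.

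Serum amyloid A proteins are small secreted apolipoproteins of the acute-phase response. In the mouse, Saa1 and Saa2 are the main forms made by the liver during inflammation and are also made by gut epithelium, whereas Saa3 is made by macrophages, fat and epithelia. Lcn2 encodes lipocalin 2, a protein of neutrophil granules and inflamed epithelia that captures bacterial siderophores and so withholds iron. Transcription of these genes is driven by NF-kB, C/EBP and STAT3 factors downstream of cytokines such as interleukin 1, interleukin 6, interleukin 17 and interleukin 22, and gut microbes that attach to the epithelium induce Saa1 and Saa2.

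Of these genes Saa1 differed most, with a level near the array median in the graft, against a high level in the colon. Values are levels on the log2 scale as deposited, and differences are graft minus colon on that scale. Saa1 was at 5.51 in the graft, against 11.00 in the colon, a difference of -5.49, or 44.9-fold lower in the graft. On its own array the graft value lay above 52.3% of the probe sets and the colon value above 98.5% of them. Saa2, the closest relative of Saa1, was at 4.79 in the graft, against 5.52 in the colon. Its difference was -0.74, a 1.67-fold lower value in the graft. Its graft value lay above 22.0% of the probe sets and its colon value above 52.4%.

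Saa3 was at 4.74 in the graft, against 5.06 in the colon, a difference of -0.32. The graft value of Saa3 lay below the 20th percentile of its array, which was 4.75, so it stood at the lower end of the scale. Lcn2 was at 4.93 in the graft, against 4.79 in the colon, a difference of 0.14. Both Lcn2 values lay close above the 20th percentile of their arrays, 4.75 in the graft, against 4.74 in the colon, at distances of 0.18 and 0.050. No detection call comes with these values. Signal and background therefore cannot be separated for Saa3 and Lcn2 on either array or for Saa2 in the graft. The background share is also unknown for Saa1 in the graft and Saa2 in the colon, which lie near the array median. A fold against a background level can understate a change by an unknown amount. If Saa1 RNA adds to the Saa2 probe set, the 1.67-fold can instead overstate the change of Saa2. The 1.67-fold is therefore no limit in either direction, and no direction is read from the differences of Saa3 and Lcn2.

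**Figure D1:**
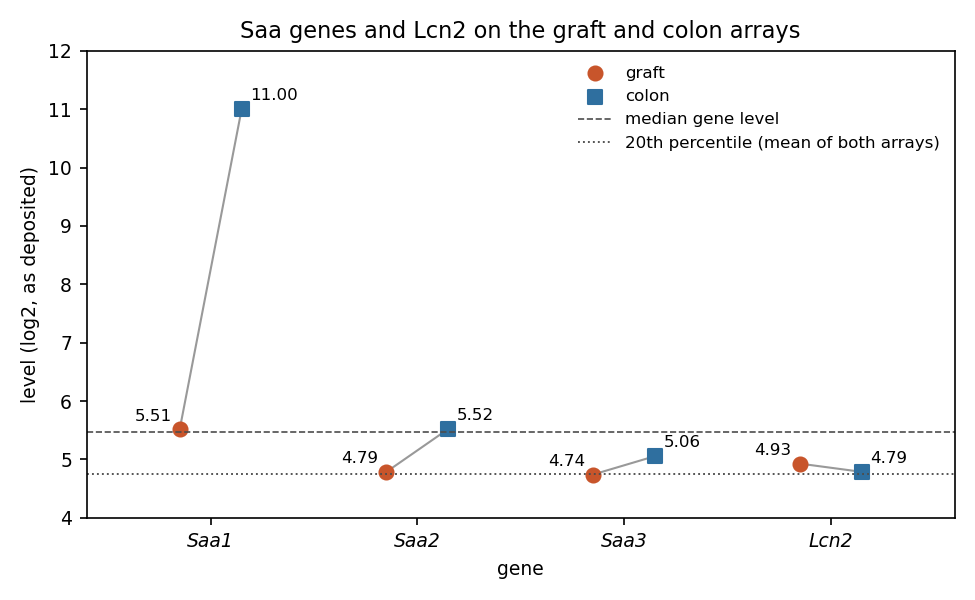
Level of Saa1, Saa2, Saa3 and Lcn2 (log2, as deposited) on the graft array (circles) and the colon array (squares), 1 array each, with the median gene level of 5.48 dashed and the 20th percentile dotted. Saa1 is at 5.51 in the graft, against 11.00 in the colon, while the other 3 genes lie at or below 5.52 on both arrays.

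With 1 array per group no test of these differences was possible, and the values describe 2 specimens. The spread between different probe sets of the same gene is the only error that the table holds. Over 586 genes with 2 probe sets at or above the median gene level of 5.48, the differences read from these probe sets stood apart with an SD of 0.48. Over 169 genes with both probe sets below that level on both arrays, where Saa3 and Lcn2 also lie, the SD was 0.22. The difference of Saa1 was 11.5 times the SD of the brighter genes. Saa2 reached the median gene level on the colon array alone. Its difference was 1.54 times the SD of the brighter genes and 3.41 times that of the dim genes. The difference of Saa3 was 1.46 times the SD of the dim genes and that of Lcn2 0.65 times. In the order of differences Saa1 came lowest, and 4.75 separated it from Saa2. Saa2 and Saa3 stood 0.42 apart and Saa3 and Lcn2 0.46 apart, which is less than the SD of the brighter genes and 1.95 and 2.11 times that of the dim genes. Variation between animals is not part of this spread, and fewer cells of a type and less RNA per cell cannot be told apart in such pooled tissue.

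Each of the 4 genes had 1 probe set, and 0 of these probe sets carried several gene symbols in the platform's annotation. The names need care for another reason. The RefSeq gene table lists Saa2 among the synonyms of Saa1 and Saa1 among those of Saa2. The probe sets were therefore matched by Entrez identifier, 20208 for Saa1 and 20209 for Saa2, and for all 4 genes a RefSeq mRNA of the probe set was also listed for the gene of that identifier. The mouse Saa1 and Saa2 transcripts are near-identical, so part of the Saa2 signal may come from Saa1 RNA or the reverse, and this was not tested.

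Among the 9392 genes whose higher value reached the median gene level, 5.68% had at least 2-fold lower levels in the graft and 3.55% at least 2-fold higher levels, and 1.37% had at least 4-fold lower levels. Of the 4 genes examined, 1 was at least 2-fold lower, which was Saa1, and 0 were at least 2-fold higher. Saa1 and Saa2 reached the median gene level, whereas Saa3 and Lcn2 stayed below it on both arrays. Saa1 had the 5th lowest difference of the 9392 genes. A difference as low as that of Saa2 or lower was found for 10.2% of these genes and one as low as that of Saa3 or lower for 28.3%, while 29.1% had a difference as high as that of Lcn2 or higher.

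**Figure D2:**
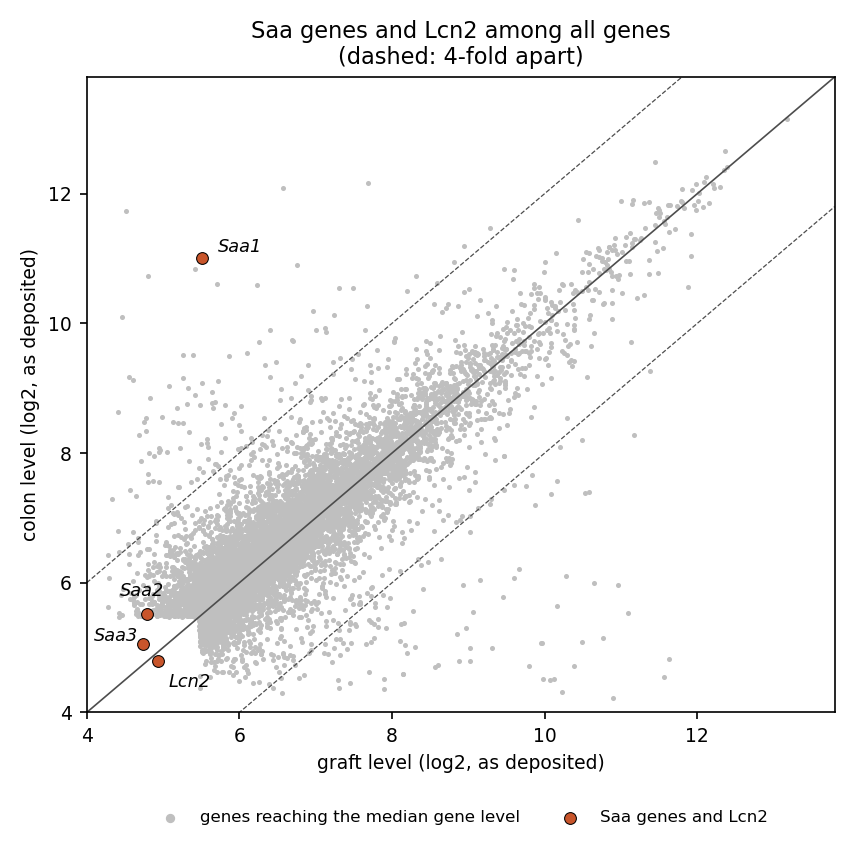
Level in the graft (horizontal, log2) against level in the colon (vertical, log2) for the 9392 genes that reached the median gene level (grey) and for the Saa genes and Lcn2 (orange), with equality as a solid line and 4-fold differences dashed. Saa1 lies far above the upper dashed line, and Saa2, Saa3 and Lcn2 lie between the dashed lines near the lower end of both scales, the last 2 of them below the median gene level.

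The genes next to Saa1 in the order of differences, the measure of likeness over these 2 arrays, are genes with high levels in the colon. The lowest graft level was 4.19, so a difference this low requires a high colon level, and that trait follows from the order. Cyp2c55, a cytochrome P450, and Zg16, a lectin-like protein of goblet cell mucus, came just below Saa1 with -5.64 and -5.51. Ly6g, a gene of the Ly6 surface protein family, and Abcb1a, a drug efflux pump, came just above it with -5.42 and -4.90. Zg16 was at 6.57 in the graft, against 12.08 in the colon, and Ly6g at 5.42 in the graft, against 10.84 in the colon. For the other 3 genes this order says little, because 477 genes lay within 0.1 of the difference of Saa2, 1283 within 0.1 of that of Saa3 and 1472 within 0.1 of that of Lcn2. Their nearest genes were Bcl2l14, Kif21a, Prr15l and Pef1 for Saa2, Vapa, Ubl3, Ints7 and Pih1d1 for Saa3, and Ppfia1, Tigar, Tdp2 and Knl1 for Lcn2.

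The promoters of Saa1 and Saa2 are shown because these near-identical neighbours were the Saa genes that reached the median gene level. The windows come from RefSeq on build GRCm38.p6 and run from 250 bases before the transcript start to 50 bases after it. Saa1 lies on the minus strand of chromosome 7 (chr7:46742931-46743230) and Saa2 on the plus strand (chr7:46751583-46751882), and both are printed 5′ to 3′ along the transcript, with matches to the motifs described below in capitals.
Saa1: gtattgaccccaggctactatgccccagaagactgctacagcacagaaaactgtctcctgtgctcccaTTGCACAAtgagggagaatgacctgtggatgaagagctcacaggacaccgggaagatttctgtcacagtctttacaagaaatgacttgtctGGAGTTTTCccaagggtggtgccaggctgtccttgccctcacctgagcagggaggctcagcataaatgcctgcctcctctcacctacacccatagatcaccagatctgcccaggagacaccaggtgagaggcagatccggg
Saa2: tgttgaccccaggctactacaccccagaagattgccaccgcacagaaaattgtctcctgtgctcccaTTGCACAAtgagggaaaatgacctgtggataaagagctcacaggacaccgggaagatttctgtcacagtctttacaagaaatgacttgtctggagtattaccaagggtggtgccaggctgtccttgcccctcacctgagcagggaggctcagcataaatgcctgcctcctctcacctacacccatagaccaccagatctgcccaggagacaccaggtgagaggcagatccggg

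The windows were 95.3% identical in a global alignment, with 287 identical bases in 301 columns, 12 mismatches and 2 gap columns. For comparison, Saa1 and Saa3 were 49.4% identical over their windows and Saa1 and Lcn2 51.4%, and Saa3 and Lcn2, genes of different families, 45.6%. A C/EBP-type motif, TTGCNNAA on either strand, was present in all 4 promoters and in 10.8% of 32851 RefSeq promoter windows of the same length. Saa1 and Saa2 share the match TTGCACAA, which begins 182 bases before the start in Saa1 and 183 bases before it in Saa2. The Saa3 window (chr7:46715627-46715926, minus strand) has TTATGCAA, a match of the opposite strand, 99 bases before its start. The Lcn2 window (chr2:32387690-32387989, minus strand) has TTGCTCAA 216 bases before its start.

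An NF-kB-type motif, GGNNNTTTC on either strand, was found in 15.2% of all windows. Among the 4 genes it occurred only in the Saa1 window, as GGAGTTTTC beginning 91 bases before the start. Of the 12 mismatches between the windows, 2 lie in this match, T165A and C168A, given as the Saa1 base, the position counted from 1 at the 5′ end of the Saa1 window, and the Saa2 base. The C/EBP-type match holds 0 of them. A STAT-type motif, TTCNNNGAA, and the exact TATA box letters TATAAA, which 8.3% and 13.6% of all windows hold, had 0 matches in the 4 windows. Other spellings of a TATA box were not searched, so its absence is not shown. The motif letters were chosen with the windows in view, so which windows hold a match depends on that choice. No 2 matches overlap, and a match is not a measured binding site. Whether the sequence bears on the levels was not tested.

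**Figure D3:**
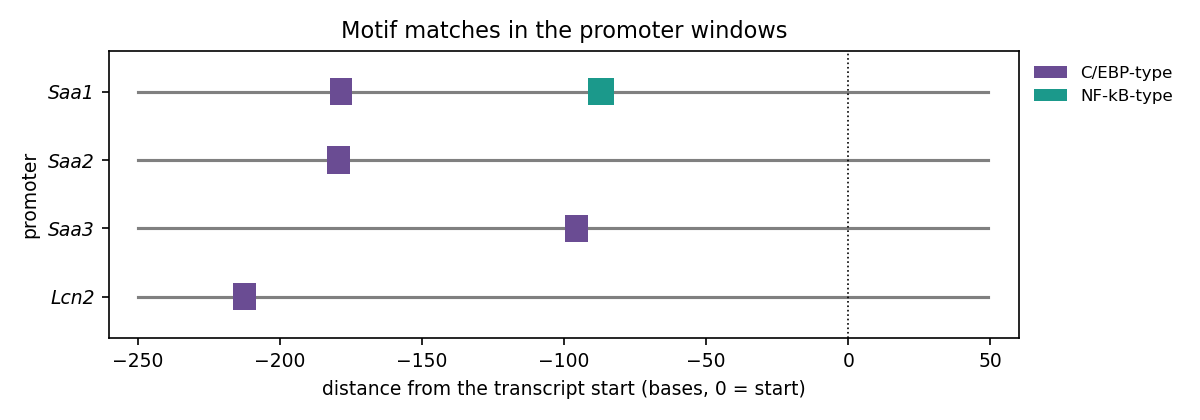
Position of motif matches in the promoter windows of Saa1, Saa2, Saa3 and Lcn2, with distance from the transcript start in bases on the horizontal axis, C/EBP-type matches in purple and the NF-kB-type match in green. Each window holds 1 C/EBP-type match, and the NF-kB-type match is in the Saa1 window alone. The motif letters were chosen with the windows in view.

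The Saa genes form a cluster on chromosome 7, in the order Saa3, Saa4, Saa1 and Saa2. Saa4, the constitutive member of the family, was not analysed here. The 5 nearest protein-coding genes on each side were looked up after the values of the Saa genes were known. Of these 10 neighbours 9 were measured, and 0 differed by 2-fold, with differences between -0.42 and 0.51 and a median of -0.015. Hps5, the neighbour on the Saa2 side, was at 5.88 in the graft, against 5.94 in the colon. Saal1, the neighbour on the Saa3 side, was at 5.95 in the graft, against 5.94 in the colon. Ldha, the lactate dehydrogenase A gene, was at 10.26 in the graft, against 9.75 in the colon. Since 5.68% of the 9392 genes were lower and 3.55% higher by that fold, a count of 0 among 9 neighbours is near the background. Some neighbours, such as Tph1 and Sergef, did not reach the median gene level as the 9392 genes did, and for these the background is not alike.

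**Figure D4:**
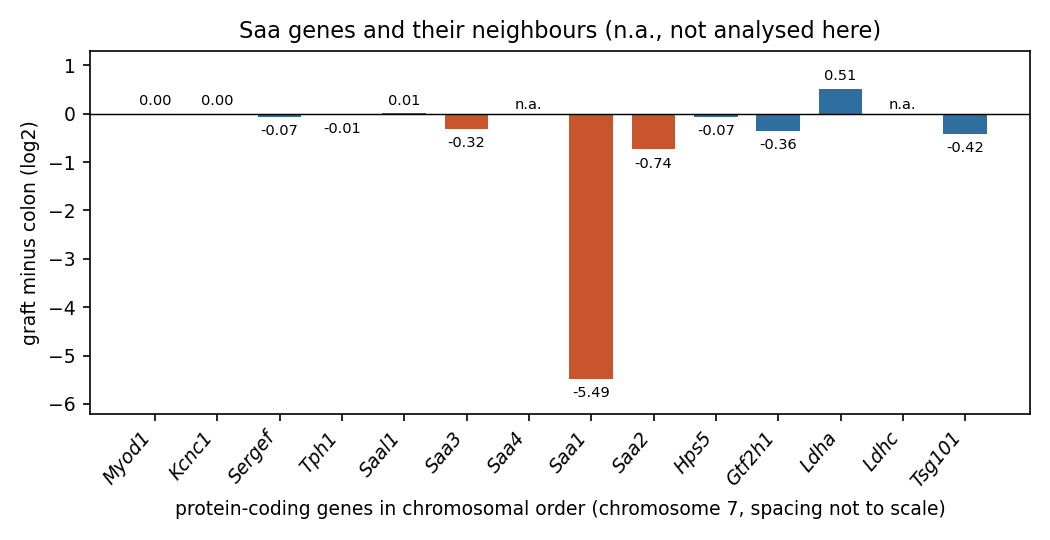
Difference between graft and colon (log2) for the Saa genes (orange) and the 5 nearest protein-coding genes on each side (blue) in chromosomal order, without scale for the spacing. Saa1 stands at -5.49, and the 9 measured neighbours lie between -0.42 and 0.51.

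Among the cytokines that induce Saa genes and Lcn2, most were dim on both arrays. Of 14 genes listed, 9 were measured, 3 reached the median gene level and 1 was at least 2-fold lower in grafted epithelium, where 5.68% of the 9392 genes were. The median difference was 0.12, beside 0 over all 17305 genes, and it was 0.55 over the 3 members that reached the level and 0.013 with a floor at the 20th percentile of each array. The gene that was lower was Il18, a cytokine stored by intestinal epithelial cells, at 5.42 in the graft, against 8.89 in the colon, 11.1-fold lower. Il33, an alarmin, was at 5.73 in the graft, against 4.89 in the colon, and Tnf, which activates NF-kB, at 5.63 in the graft, against 5.08 in the colon. Il17a was at 4.84 in the graft, against 4.82 in the colon. Il22 had 2 probe sets, each annotated with a further gene, and is given no value.

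The receptors and adaptors for these cytokines were measured for 16 of 17 genes, of which 14 reached the median gene level and 0 differed by 2-fold. Among the 9392 genes 5.68% were lower and 3.55% higher by that fold, so a count of 0 is near the background. The median of the receptors and adaptors was -0.33, with differences between -0.76 and 0.42. The chains of the interleukin 22 receptor were well above the median gene level on both arrays. Il22ra1, its specific chain, was at 8.24 in the graft, against 8.90 in the colon, and Il10rb, the chain it shares with the interleukin 10 receptor, at 7.22 in the graft, against 7.90 in the colon. Il17ra, the common chain of interleukin 17 receptors, was at 5.60 in the graft, against 6.09 in the colon. Myd88, the adaptor of interleukin 1 and Toll-like receptors, had the lowest difference of the list, -0.76.

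Transcription factors and feedback inhibitors of these pathways were measured for 14 of 16 genes, and all 14 reached the median gene level. Of these, 2 had at least 2-fold higher levels in the graft and 0 had lower ones, beside 3.55% and 5.68% of the 9392 genes, with a median of 0.057. Nfkbiz, an NF-kB co-factor that Lcn2 induction depends on, was at 7.32 in the graft, against 6.08 in the colon, 2.36-fold higher. Socs3, the feedback inhibitor induced by STAT3, was at 6.64 in the graft, against 5.56 in the colon, 2.12-fold higher. Stat3 itself was at 7.39 in the graft, against 7.33 in the colon. The C/EBP factor genes Cebpb and Cebpd had differences of 0.21 and -0.65, and Rela, the NF-kB subunit gene, was at 6.10 on both arrays. Differences over the whole list ran from -0.65 to 1.24, with Nfkbia at -0.61 and Relb at -0.50. Whether any of these genes bears on the Saa and Lcn2 levels was not tested.

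**Figure D5:**
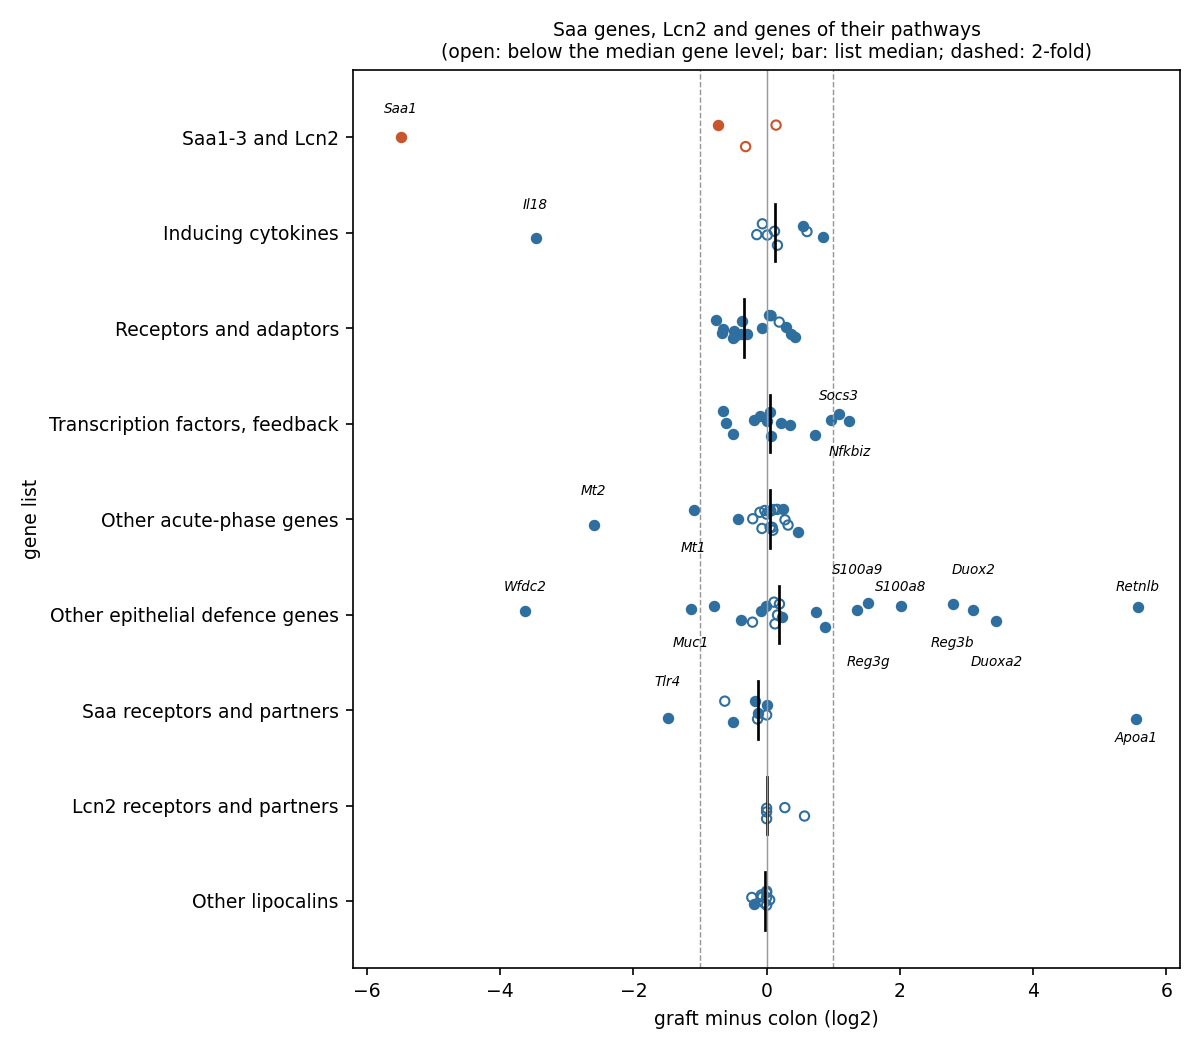
Difference between graft and colon (log2, horizontal) for Saa1, Saa2, Saa3 and Lcn2 (orange) and for genes of their pathways (blue), 1 point per gene, with open points for genes below the median gene level, a bar at each list's median and dashed lines at 2-fold. Saa1 lies at -5.49, and the list medians lie between -0.33 and 0.19.

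Other acute-phase genes were mostly near the lower end of the scale. Of 24 listed, 19 were measured, 5 reached the median gene level, 2 were at least 2-fold lower in grafted epithelium and 0 were higher, beside 5.68% and 3.55% of the 9392 genes. The median was 0.053, and it turned to -0.43 over the 5 members that reached the level. The lower genes were the zinc-binding metallothioneins. Mt2 was at 7.68 in the graft, against 10.27 in the colon, 6.05-fold lower, and Mt1 at 9.58 in the graft, against 10.68 in the colon, 2.14-fold lower. Among genes of the hepatic acute-phase response, haptoglobin, Hp, was at 4.64 in the graft, against 4.54 in the colon, and the lipopolysaccharide-binding protein gene Lbp was at 5.47 on both arrays. Cfb, which encodes complement factor B, was at 7.53 in the graft, against 7.97 in the colon.

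Other inducible defence genes of the epithelium went in both directions. Of 22 listed, 21 were measured and 16 reached the median gene level, 7 of them 2-fold or more higher in the graft and 2 lower to that extent, beside 3.55% and 5.68% of the 9392 genes. The median was 0.19, and 0.81 over the 16 members that reached the level. Wfdc2, a secreted protein with a whey acidic protein domain, was at 5.87 in the graft, against 9.50 in the colon, 12.4-fold lower, and the transmembrane mucin gene Muc1 was 2.20-fold lower. The higher genes were Retnlb, Duoxa2, Duox2, Reg3b, S100a8, Reg3g and S100a9, with differences between 1.36 and 5.57. The colon values of Retnlb, Reg3b, S100a8, Reg3g and S100a9 lay below the 20th percentile of that array. Signal and background cannot be separated there, so the sizes of these differences are uncertain. Reg3b and Reg3g encode antimicrobial lectins that, like Saa1 and Lcn2, are targets of interleukin 22. Reg3g was at 6.07 in the graft, against 4.54 in the colon, opposite in direction to Saa1. Pigr, the receptor that carries immunoglobulin A across the epithelium, had a difference of 0.23.

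Partner genes of serum amyloid A differed at both ends of the scale. Of 11 listed, 9 were measured and 6 reached the median gene level, with 1 gene at least 2-fold higher in the graft, 1 lower to that extent, beside 3.55% and 5.68% of the 9392 genes, and a median of -0.14. Apoa1, the main apolipoprotein of the high-density lipoprotein that carries serum amyloid A in blood, was at 11.09 in the graft, against 5.54 in the colon. Tlr4, the lipopolysaccharide receptor, was at 5.76 in the graft, against 7.24 in the colon, 2.79-fold lower. Tlr2, a receptor reported for serum amyloid A, had a difference of -0.51. Scarb1, the high-density lipoprotein receptor, was at 5.96 on both arrays.

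The receptor genes of lipocalin 2 had equal values on both arrays. Slc22a17, which encodes its cell surface receptor, was at 5.47 on both arrays, and Lrp2, the endocytic receptor megalin, at 4.54 on both arrays. Exactly equal values on the 2 arrays were found for 12.6% of all genes, so equality here is a common property of the table. Of 5 partner genes, 0 reached the median gene level and 0 differed by 2-fold, with differences between 0 and 0.57 and a median of 0. Of 16 other lipocalin family genes, 10 were measured, 1 reached that level and 0 differed by 2-fold, with differences between -0.22 and 0.046 and a median of -0.019. By that fold 5.68% of the 9392 genes, which all reached that level, were lower and 3.55% higher. Most genes of these short lists did not reach it, so these shares are no like background and the counts of 0 say little.

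The labelled tissues were set beside markers of each tissue. All 7 small intestinal markers, among them Fabp1 and Sis, stood at least 4-fold higher in the graft, against 1.1% of the 9392 genes. All 7 colonic markers, among them Car1 and Hoxb13, were at least 4-fold lower, against 1.37%. These markers were chosen with earlier results of these data known, so their counts are no independent check of the labels. Of 7 general epithelial markers such as Epcam and Krt8, 0 differed by 2-fold. The background for this and the following 2-fold counts is 5.68% of the 9392 genes lower and 3.55% higher. Cells outside the epithelium that make Saa genes or Lcn2 were examined through their own markers. Of 11 measured neutrophil markers, 2 stood at least 2-fold higher in the graft, S100a8 and S100a9, which the list of defence genes also holds. The summed linear level of the 11 neutrophil markers came to 487.7 in the graft, against 306.5 in the colon, and without S100a8 and S100a9 to 327.3 in the graft, against 257.3 in the colon. Of the 11 markers 3 reached the median gene level, so most members of these sums are dim and may be background. Ly6g, the neighbour of Saa1 in the order of differences, is also a surface marker of mouse neutrophils and was not in the list. With Ly6g the sum came to 530.6 in the graft, against 2136 in the colon, which turns the direction. That turn rests on 1 gene, added after its difference was seen, while the differences of the 11 listed markers lay between 0 and 2.01. No direction for neutrophils is read from these sums. The granule genes Mpo, Elane, Camp, Ngp and Ltf lay between 4.44 and 4.95 on both arrays. Of 6 measured hepatocyte markers, 1 was at least 2-fold lower, Tat, and Alb, which encodes albumin, was below the 20th percentile of both arrays, at 4.58 in the graft, against 4.55 in the colon. The summed hepatocyte marker level came to 184.5 in the graft, against 205.7 in the colon, with 1 of the 6 markers reaching the median gene level. Macrophage, T cell and innate lymphoid, and adipocyte markers held 0 genes that differed by 2-fold, of 9, 6 and 4 measured. Of these, 5, 1 and 0 reached the median gene level, and counts of 0 in such short lists are near the background. That background covers only genes that reached the level, so the counts of the last 2 lists say little. Of 8 fibroblast markers, 1 was at least 2-fold lower in the graft, Lum, and the summed level came to 584.0 in the graft, against 823.6 in the colon. The part of these cells in the Saa and Lcn2 values was not tested.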

How the data were processed

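RNA of 1 graft and 1 control colon specimen was profiled on 1 single-channel array each, after whole-transcriptome amplification, per the labels' protocols. The deposited table gives a log2 level for each of 24074 probe sets on each array. The log2 scale was read from the values, while the sources used here do not give the software, background correction or normalization. Whether arrays were centred is unknown. The medians were 5.44 in the graft, against 5.43 in the colon, and the direction of a single-channel level is not in doubt.

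Probe sets with 1 symbol in the platform's annotation (18904) were used, and those with several (1330) or none (3840) were left out. The brightest probe set by the mean of both arrays stood for its gene. A gene entered the counts if its higher value reached the median of all gene values. Genes beyond 2-fold and 4-fold were counted, without a test. The number of arrays limits the precision.

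The 4 genes, the 18 other gene lists and the counts were chosen with earlier results of these data known. Genes were named if a listed gene differed by 2-fold, or for a role in Saa or Lcn2 control, or for brightness. Promoters were aligned with Biopython 1.88 (match 2, mismatch -1, gap opening -5, extension -1). Python 3.11.15, numpy 2.4.6 and pandas 2.3.3 were used, and the counting was tested on simulated data.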

Additional observations from a re-analysis of the deposited data

How the results depend on the processing

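The differences of Saa1, Saa2, Saa3 and Lcn2 hardly depended on the processing that could be varied. Over quantile normalization, median centring, the mean or the second brightest probe set per gene, probe sets with several symbols and a floor at the 20th percentile, the difference of Saa1 ranged from -5.49 to -5.44, that of Saa2 rounded to -0.74 throughout, that of Saa3 from -0.33 to -0.31 and that of Lcn2 from 0.12 to 0.14. Each of these genes has 1 probe set, so the probe set alternatives could not move them. Of 99 values under 7 alternatives, 45 equalled the main value exactly, in part because genes with 1 probe set cannot move under the probe set alternatives. Counting these, 97 stayed within the spread of probe sets or, for counts, within 1.5 times. The exceptions were list medians. Over members that reached the median gene level alone, the median of other acute-phase genes was -0.43 and that of other inducible epithelial defence genes 0.81, since this filter leaves fewer genes. Under that filter the median of the inducing cytokines was 0.55 and that of other lipocalins -0.19, and the partners of lipocalin 2 gave no value. With the floor the medians of the inducing cytokines and of other acute-phase genes were 0.013 each and that of other lipocalins 0.0061, and with the second brightest probe set that of the receptors and adaptors was -0.19. Medians this close to 0 have no settled direction. The neutrophil sums with Ly6g and without S100a8 and S100a9 were chosen after seeing the data. The list of other Saa genes had 0 measured members and gives no value. No paired analysis was possible because each group is 1 array, and for the same reason no array could be left out. Saa3 and Lcn2, and Saa2 in the graft, lie where signal over background is unknown. The background share is also unknown for Saa1 in the graft and Saa2 in the colon.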

Other observations

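The genes around Lcn2 on chromosome 2 were looked up after its value was known. All 10 of the nearest protein-coding genes, 5 on each side, were measured, with a median difference between graft and colon of 0.00085 and a range from -0.80 to 1.09. The gene that reached 2-fold was Dnm1, which encodes the endocytic GTPase dynamin 1, at 6.40 in the graft, against 5.31 in the colon. Among the 9392 genes 3.55% were higher and 5.68% lower by that fold, so 1 of 10 is near the background. Ptges2 and 1110008P14Rik, the nearest genes on the 2 sides of Lcn2, had differences of -0.035 and 0.0017. Golga2, a Golgi matrix protein gene, was at 6.37 on both arrays.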
